A study of Mus musculus with 18 samples.

Results

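The 98 genes described here encode the extracellular matrix of brain slices and the integrins that bind it. They were chosen by symbol from the 13973 genes of the deposited count table: every Adamts, Thbs and Hapln gene, numbered collagens and laminins, numbered integrin alpha and beta chains, and 11 named matrix genes (Ncan, Bcan, Vcan, Tnr, Tnc, Fn1, Agrn, Hspg2, Nid1, Nid2 and Sparc). The rule itself uses symbols and no measured value, but it was set with earlier results of these data known. The symbol rule also caught Col4a3bp, which encodes a ceramide transfer protein of the cytosol and is no collagen, so it is kept in the count and named where it matters.

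Brain matrix is built from lecticans, a family of chondroitin sulphate proteoglycans, which link proteins tie to hyaluronan and tenascin-R ties to one another. These nets wrap neurons and synapses, whereas laminins, type IV collagens, nidogens, perlecan and agrin form the basement membrane around vessels and under the meninges. Nearly all of these proteins, and the integrins that hold cells to them, are made on ribosomes at the endoplasmic reticulum, which the nascent chain reaches by a hydrophobic signal near its start.

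Slices of hippocampus and cortex came from male C57BL/6N mice, wild-type (WT) or Fmr1 knockout (KO), at postnatal day 28 to 35. Exposure lasted 30 min, either to homoharringtonine (HHT) at 20 µM or to its DMSO vehicle. HHT holds ribosomes that have just begun a coding sequence and lets those already elongating run off. Each replicate was a lysate of 10 slices, pooled from 2 or 3 mice per the labels' protocols. Every lysate gave 3 libraries, namely the cleared lysate (input) and 2 sucrose gradient pools, medium and heavy polysomes, picked by immunoblot for FMRP, the protein that Fmr1 encodes. Of the 12 groups of genotype, treatment and fraction, the 6 HHT groups have 2 libraries and the 6 vehicle groups have 1. The tissue was homogenised and cleared by centrifugation before detergent was added, so RNA that pelleted with membranes is in none of the libraries. The part of that step in the values below was not tested.

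The 18 libraries held 6226237 to 13834652 estimated counts. Fmr1 stood at 13.9 to 32.2 CPM (the count scaled to its library's total) in the 9 WT libraries and at 4.62 to 8.53 in the 9 KO libraries, without overlap. All values are shares of the RNA in their own fraction. In such bulk samples, fewer cells of a type and less RNA per cell cannot be told apart.

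The start of the coding sequence is shown for the members that the results turn on, because it is where HHT holds ribosomes and where the signal for the endoplasmic reticulum lies. Each line gives the first 90 coding bases, 5′ to 3′ on the coding strand, from GENCODE M21 (GRCm38, the assembly of mm10). Capitals mark the 11 codons among the first 35 whose translation is the most hydrophobic on the Kyte-Doolittle scale.
Ncan: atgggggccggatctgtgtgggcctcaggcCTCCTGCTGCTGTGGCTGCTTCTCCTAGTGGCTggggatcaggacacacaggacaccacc
Tnr: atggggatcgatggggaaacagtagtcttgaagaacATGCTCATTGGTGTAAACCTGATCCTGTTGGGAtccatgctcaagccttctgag
Fn1: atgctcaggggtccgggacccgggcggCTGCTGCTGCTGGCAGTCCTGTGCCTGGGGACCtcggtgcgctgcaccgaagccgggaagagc
Agrn: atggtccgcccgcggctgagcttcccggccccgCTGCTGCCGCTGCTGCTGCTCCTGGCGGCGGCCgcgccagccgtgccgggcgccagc
Itgb1: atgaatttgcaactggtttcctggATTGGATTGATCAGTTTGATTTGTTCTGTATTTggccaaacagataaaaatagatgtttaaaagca
Sparc: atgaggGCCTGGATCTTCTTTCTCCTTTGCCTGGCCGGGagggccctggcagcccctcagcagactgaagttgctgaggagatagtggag
Col4a3bp: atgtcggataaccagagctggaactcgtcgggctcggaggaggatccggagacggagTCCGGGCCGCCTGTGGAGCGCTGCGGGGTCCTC

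The start codon of Ncan lies at chr8:70116659-70116661 on the minus strand, that of Tnr at chr1:159850047-159850049 on the plus strand and that of Fn1 at chr1:71652980-71652982 on the minus strand. For Agrn it is chr4:156197418-156197420 (minus), for Itgb1 chr8:128705413-128705415 (plus), for Sparc chr11:55409982-55409984 (minus) and for Col4a3bp chr13:96543164-96543166 (plus). The capital stretch averaged 3.227 on the hydrophobicity scale in Ncan, 2.364 in Tnr, 2.745 in Fn1, 2.764 in Agrn, 2.6 in Itgb1 and 2.391 in Sparc. In Col4a3bp it averaged 0.173. With a mean of at least 2 taken as a hydrophobic start, 82 of the 98 members (83.7%) have one, against 2397 of the 13050 genes with a coding sequence (18.4%). Of the other 16 members, Col6a1 at 1.955 and Col11a1 at 1.945 lie just under that limit, and Col19a1 at 2.018 just over it. Members also have long coding sequences, with a median of 1190 codons against 474 for all genes. They run from 302 codons in Sparc to 4383 in Hspg2. For Vcan the annotated principal transcript is a short one of 655 codons, so its length here is that of one isoform.

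Matrix and integrin mRNAs took up a larger share of the RNA after HHT in all 3 fractions. Their summed level was 893 and 1007 CPM in the vehicle input libraries and 1418 to 2036 CPM in the HHT input libraries. In medium it was 830 and 931 CPM in vehicle and 1704 to 2220 CPM after HHT, and in heavy 998 and 1115 CPM in vehicle and 2364 to 2765 CPM after HHT. Vehicle and HHT libraries did not overlap in any fraction.

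**Figure D1:**
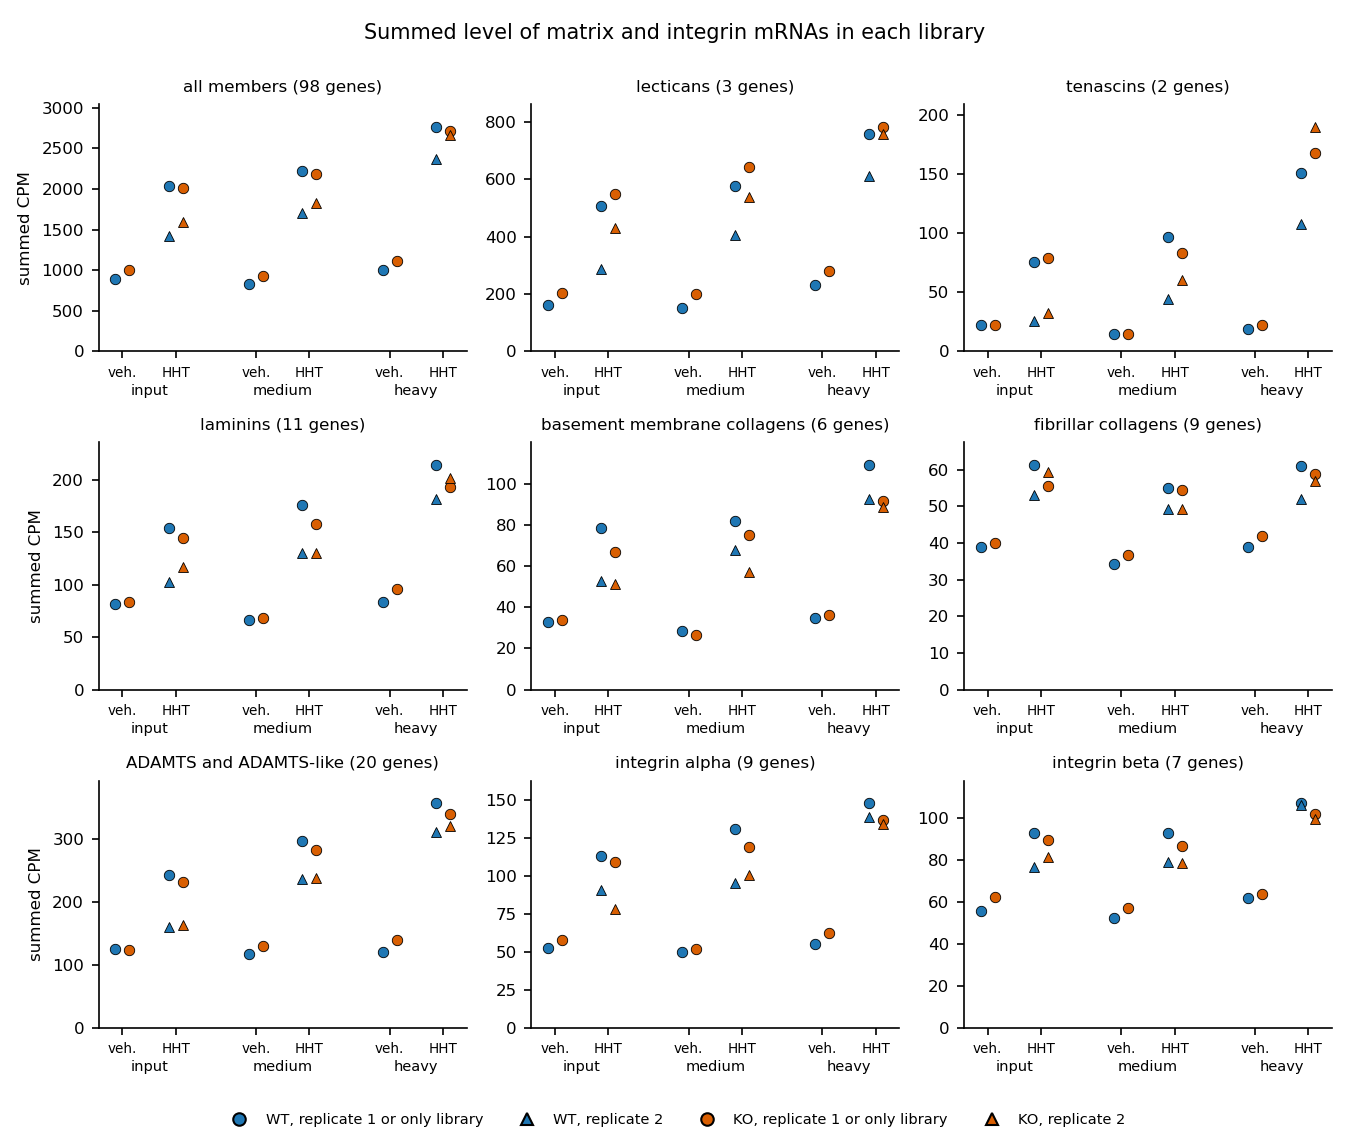
Summed CPM (y axis, linear) of all 98 members and of 8 role classes in each of the 18 libraries, by fraction and treatment, with WT in blue, KO in orange and replicate 2 as triangles. HHT libraries of all members lie at 1418 to 2765 CPM, above the vehicle libraries at 830 to 1115 CPM.

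The fit was edgeR's quasi-likelihood test over all 18 libraries, genotypes weighed equally, with Benjamini-Hochberg adjustment over all genes. Changes are log2 fold changes ± SE, and the words rose and fell are kept for genes with an adjusted p at or under 0.05. In input, 36 of 98 members rose and 0 fell, whereas 12.2% of all genes rose and 0.215% fell. In medium, 50 rose and 0 fell, against 25.4% and 21.5% of all genes. In heavy, 55 rose and 2 fell, against 27.1% and 24.7%. The share of members that rose was above that of all genes in each fraction. Members had a median change of 0.55 (input), 0.62 (medium) and 0.68 (heavy), where the median of all genes was 0.00, 0.03 and 0.06.

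Genes with a hydrophobic start at large, members or not, also rose in large numbers. Of the 2397 such genes, which include 82 members, 44.4% rose in input and 0.0417% fell, 56.9% rose in medium and 3.67% fell, and 63.3% rose in heavy and 3.09% fell. Their median changes were 0.63, 0.69 and 0.94. Members lay below this set in each fraction, both in the share that rose and in the median change. Among the members, 47 of the 82 with a hydrophobic start rose in heavy, as did 8 of the 16 without one. Those 8 are ADAMTS genes, collagens, a lectican and an integrin chain, with scores from -0.364 (Adamts1) to 1.955 (Col6a1). A score under 2 therefore does not mark a cytosolic protein among the members. Col4a3bp, which is cytosolic and among the 16, fell in heavy. Most members lay higher in each single HHT lysate: 81 to 90 of 98 lay above the vehicle library of their genotype in input, 82 to 89 in medium and 75 to 89 in heavy. Both HHT lysates of a genotype were set against the same vehicle library, so these counts are not independent. They were not made over all genes. The median log2(CPM + 1) difference of all genes was -0.05 to 0.07 in input, 0.0 to 0.03 in medium and 0.01 to 0.05 in heavy.

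The input count rested on replicate 1 more than the polysome counts did. Leaving out WT HHT replicate 1 gave 17, leaving out KO HHT replicate 1 also gave 17, and leaving out a replicate 2 lysate gave 41 (WT) or 31 (KO). On the log2(CPM + 1) scale, the median member difference in input from the vehicle library of the same genotype was 0.64 (WT) and 0.54 (KO) in replicate 1. In replicate 2 it was 0.37 (WT) and 0.4 (KO). In medium and heavy the count stayed at 44 to 53 and 47 to 55 whichever lysate was left out. HHT replicate 2 libraries also had a lower floor in the authors' rescaled TPM, with lowest values of 0.7722 to 0.9041. HHT replicate 1 libraries had 1.0132 to 1.0428, and the vehicle libraries lay near them at 1.0039 to 1.0242. The part of that in the input difference, and in the changes from vehicle, was not tested. Vehicle groups hold 1 library each and are assumed to vary like the HHT groups.

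Across fractions, 27 members rose in all 3 fractions, 28 rose in heavy without passing in input, and 67 rose in at least 1. Such overlaps were not counted over all 13973 genes, of which 1702 rose in input and 3781 in heavy. Passing in heavy and not in input is no test of a difference between them. The test of that difference, given below, called 5 members up. In input alone 5 passed, Col18a1, Col1a1, Hapln3, Itga5 and Nid2, of which Col18a1 is named after its values were seen. The 29 members that passed nowhere included many scarce ones. Members had a median of 3.98 on the rescaled TPM scale, against 22.3 for all genes, and 25 of them averaged under 2, close to the lowest values the table holds. Of the 33 members with a mean of at least 10 CPM, 20 rose in input, 28 in medium and 30 in heavy, against 14.5%, 32.5% and 33.9% of all genes at that level. Genes with a hydrophobic start were not counted separately at that level.

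**Figure D2:**
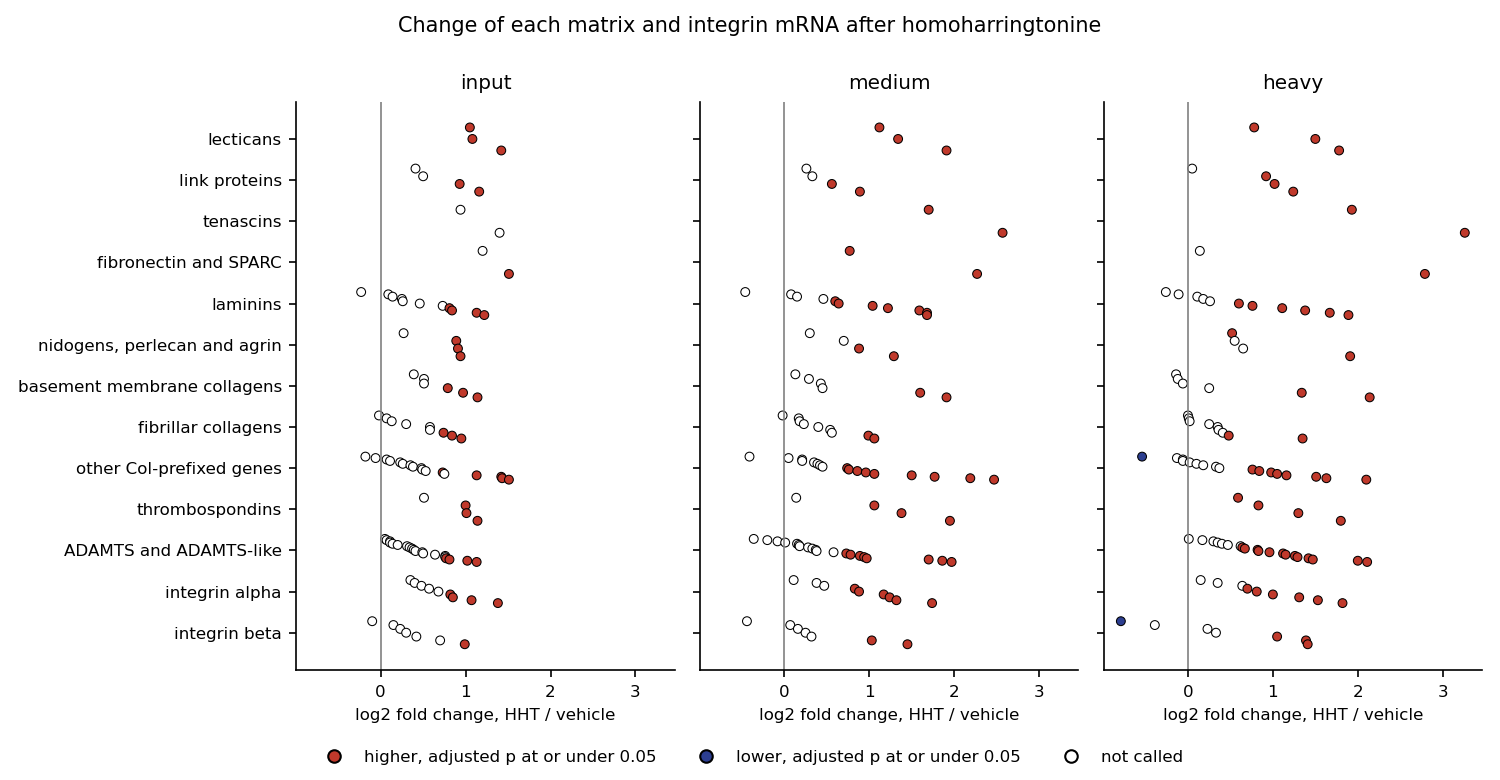
Log2 fold change of HHT over vehicle (x axis) for each of the 98 members in input, medium and heavy, 1 point a gene in the row of its role class, spread vertically only to be seen, with red for a rise, blue for a fall and white for an adjusted p over 0.05. Red points number 36, 50 and 55, and the 2 blue points are Itgb2 and Col4a3bp in heavy.

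Of the net-forming genes, all 3 lecticans rose in each fraction, while link proteins and tenascins passed in part. Ncan (neurocan), the member with the highest level at a mean rescaled TPM of 129, held 93.5 and 117 CPM in the WT and KO vehicle input libraries. The HHT input libraries held 335 and 165 CPM in WT and 374 and 253 in KO. In heavy polysomes Ncan held 148 and 185 CPM in vehicle, 583 and 487 in WT HHT and 613 and 593 in KO HHT. Every HHT library was above every vehicle library of its fraction in input and heavy, and the 2 replicate 2 input libraries were the lowest of the HHT input libraries. Input rose by 1.42 ± 0.27 (adjusted p = 0.00376). Medium rose by 1.91 ± 0.28 (adjusted p = 0.000196) and heavy by 1.78 ± 0.27 (adjusted p = 0.000113). Bcan (brevican) rose by 1.08 ± 0.17, 1.12 ± 0.17 and 0.78 ± 0.17 in the same order, and Vcan (versican), the scarcest of the 3, by 1.05 ± 0.27, 1.34 ± 0.30 and 1.50 ± 0.31.

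Of the 4 link proteins, 2 rose in input, 2 in medium and 3 in heavy, against 12.2%, 25.4% and 27.1% of all genes. Hapln4, a link protein of perineuronal nets, held 72.0 and 78.1 CPM in vehicle heavy polysomes and 169, 183, 175 and 180 CPM in the HHT heavy libraries. The HHT libraries lay close together and well above vehicle. The change was 1.24 ± 0.13 (adjusted p = 9.74e-06). In medium, where vehicle libraries held 87.5 and 104 CPM, it was 0.56 ± 0.12.

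Tenascin-R, which cross-links lecticans, had the largest change of any member in heavy. Tnr held 11.1 and 14.5 CPM in vehicle heavy polysomes, 123 and 85.8 CPM in WT HHT and 135 and 148 CPM in KO HHT. The change was 3.26 ± 0.57, a fold of 9.57 (adjusted p = 0.000316), and 2.57 ± 0.57 in medium (adjusted p = 0.00248). In input the HHT replicates split: 58.3 and 62.9 CPM in replicate 1 of WT and KO, 17.5 and 20.9 CPM in replicate 2, beside 15.6 and 15.0 CPM in vehicle. The input change of 1.40 ± 0.51 did not pass (adjusted p = 0.106). Replicate 1 alone gave 1.99 and replicate 2 alone gave 0.29. Such fits keep 1 HHT lysate a genotype and hold no spread between lysates of a genotype, so only their estimates are given. Tnc (tenascin-C) rose by 1.70 ± 0.33 in medium and 1.93 ± 0.32 in heavy, and stood at 0.94 ± 0.31 in input (adjusted p = 0.0663).

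Fibronectin, the large glycoprotein that many integrins bind, followed Tnr. Fn1 held 8.49 and 10.8 CPM in vehicle heavy polysomes, 77.7 and 59.9 CPM in WT HHT and 65.1 and 63.9 CPM in KO HHT, a change of 2.79 ± 0.43 (adjusted p = 0.000118). In input, vehicle held 15.3 and 14.6 CPM, replicate 1 held 54.0 in WT and 41.3 in KO, and replicate 2 held 20.6 and 20.5. No library overlapped between treatments in either fraction, but replicate 2 input lay much nearer to vehicle. The input change, a fold of 2.29 (SE 0.38 on the log2 scale), did not pass (adjusted p = 0.0567). Its log2 value was 1.66 from replicate 1 alone and 0.43 from replicate 2 alone.

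Sparc, a small collagen-binding protein, went the other way across the gradient. It held 28.2 and 53.6 CPM in the WT and KO vehicle input libraries, 101 and 111 CPM in WT HHT input and 101 and 130 CPM in KO HHT input. In heavy polysomes it held 29.9 and 37.3 CPM in vehicle, 38.3 and 29.8 in WT HHT and 41.4 and 38.8 in KO HHT. Treatments were apart in input and overlapped in heavy, and replicate 2 was not the lower replicate in input. Input rose by 1.51 ± 0.15 (adjusted p = 0.00097) and medium by 0.77 ± 0.15 (adjusted p = 0.00117), while heavy stood at 0.14 ± 0.15 (adjusted p = 0.465). With limma on rescaled TPM the heavy value was 0.37 and passed (adjusted p = 0.0329).

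**Figure D3:**
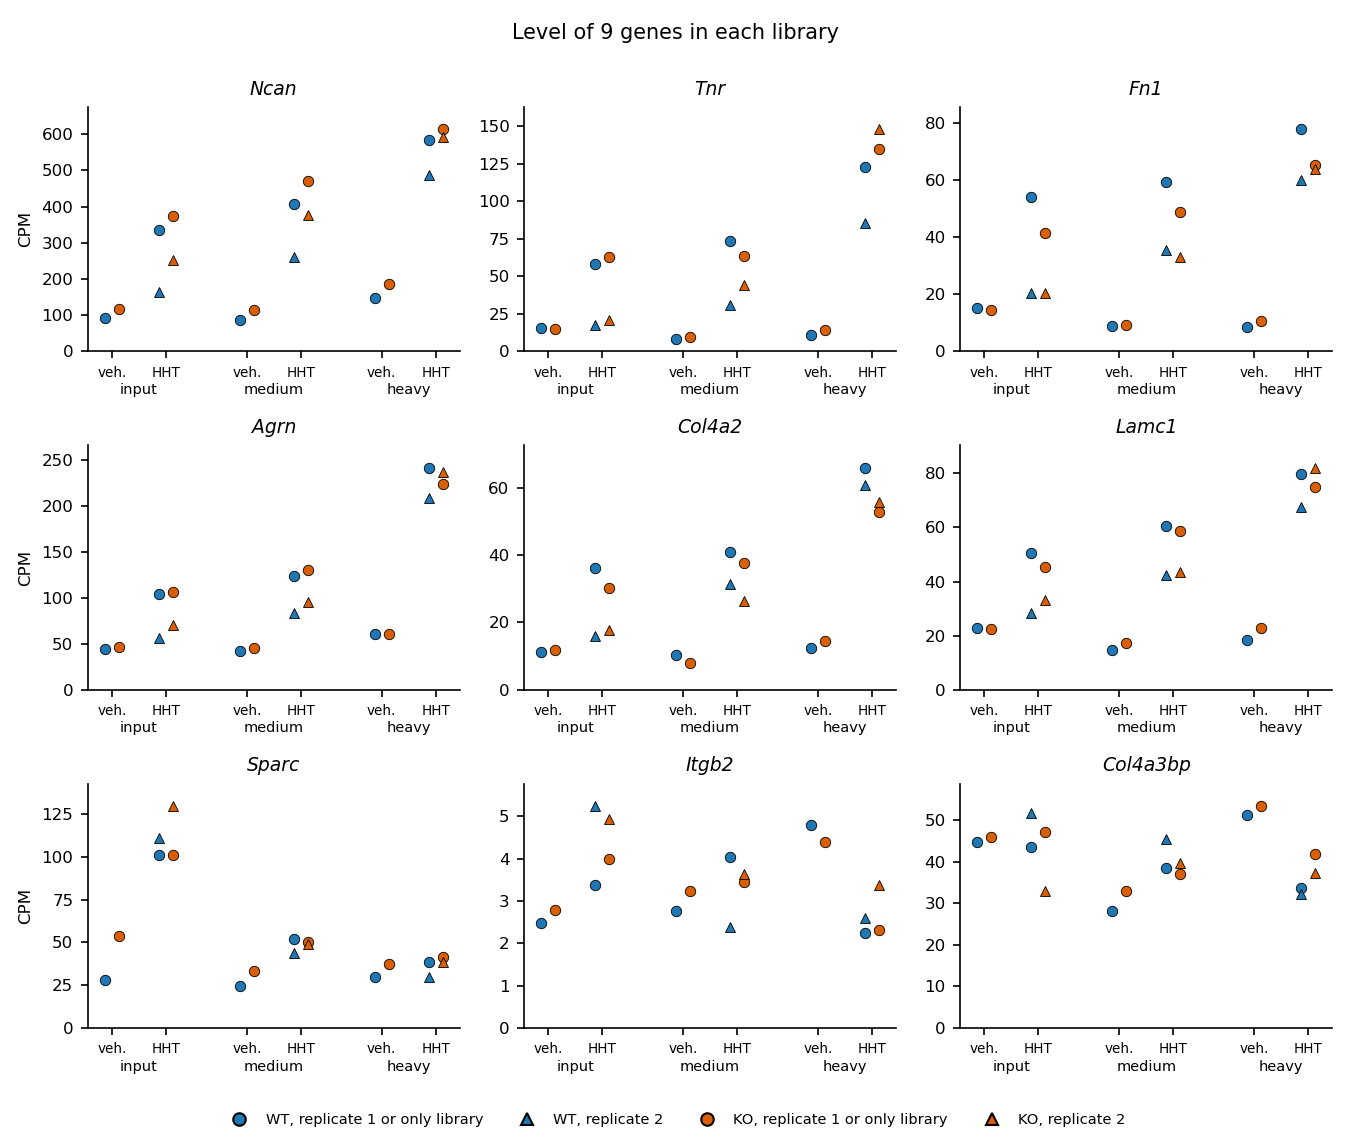
CPM (y axis, linear) of 9 members in each library, by fraction and treatment, with WT in blue, KO in orange and replicate 2 as triangles. Tnr and Fn1 in heavy polysomes lie at 85.8 to 148 and 59.9 to 77.7 CPM after HHT against 14.5 CPM or less in vehicle, whereas Sparc after HHT is highest in input, at 101 to 130 CPM.

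Basement membrane genes rose unevenly. Laminins, heterotrimers that start the sheet, had 4, 7 and 6 of 11 members higher in input, medium and heavy. The shares of all genes that rose were 12.2%, 25.4% and 27.1% in that order. Lamc1, the gamma chain most trimers share, held 18.5 and 22.8 CPM in vehicle heavy polysomes and 79.8, 67.6, 74.8 and 82.1 CPM after HHT, a change of 1.89 ± 0.26 (adjusted p = 4.67e-05). Lamb1 rose by 1.13 ± 0.23 in input, 1.59 ± 0.25 in medium and 1.38 ± 0.24 in heavy. Agrn (agrin), a heparan sulphate proteoglycan that also organises synapses, held 60.2 and 61.1 CPM in vehicle heavy polysomes. After HHT it held 242 and 209 CPM in WT and 224 and 237 CPM in KO, with no overlap, and the change was 1.91 ± 0.26 (adjusted p = 4.98e-05). Input rose less, by 0.91 ± 0.25 (adjusted p = 0.0282).

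Nidogens and perlecan gave 1 call in heavy polysomes. Nid1 and Nid2, the nidogens that join laminin to collagen, rose in input by 0.89 ± 0.19 and 0.94 ± 0.27, and stood in heavy at 0.55 ± 0.22 (adjusted p = 0.0509) and 0.65 ± 0.32 (adjusted p = 0.106). Hspg2 (perlecan), the longest coding sequence among the members, rose only in heavy, by 0.52 ± 0.21 (adjusted p = 0.0494), a call lost when any lysate but WT HHT replicate 2 was left out. Type IV collagens were led by Col4a2, with 12.4 and 14.4 CPM in vehicle heavy polysomes and 65.9, 60.8, 52.7 and 55.8 CPM after HHT, a change of 2.14 ± 0.32 (adjusted p = 0.000102). Its partner chain Col4a1 rose by 1.34 ± 0.25 in heavy, 1.60 ± 0.25 in medium and 0.97 ± 0.22 in input. None of the other 4 genes in this class passed in medium or heavy.

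Collagens outside the basement membrane gave fewer calls for the fibrillar class. Fibrillar collagens, the cable-forming type scarce in brain, had 3, 2 and 2 of 9 members higher, and their summed level was 38.8 and 41.9 CPM in vehicle heavy polysomes and 52.0 to 61.1 CPM after HHT. Of all genes 12.2%, 25.4% and 27.1% rose in input, medium and heavy. The fibrillar counts in medium and heavy did not exceed those shares. Col5a1 rose in heavy by 1.35 ± 0.24, and Col1a1 and Col1a2 rose in input by 0.84 ± 0.24 and 0.95 ± 0.26. Among the 17 other Col-prefixed genes 5, 9 and 8 rose. Col25a1, a membrane-spanning collagen of neurons, held 15.5 and 16.6 CPM in vehicle heavy polysomes and 57.2 to 82.9 CPM after HHT, a fold of 4.29 (SE 0.34 on the log2 scale, adjusted p = 0.000157). The type VI chains Col6a1 and Col6a2 rose in heavy by 1.63 ± 0.29 and 1.51 ± 0.31. Col4a3bp, the non-collagen, fell in heavy by 0.54 on the log2 scale (SE 0.16, adjusted p = 0.0102), from 51.3 and 53.5 CPM in vehicle to 33.6, 32.3, 42.0 and 37.3 CPM. Limma on rescaled TPM lost that call.

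Thrombospondins, matrix proteins that astrocytes use to promote synapse formation, had 3, 3 and 4 of 4 members higher. For all genes the shares that rose were 12.2%, 25.4% and 27.1% in input, medium and heavy. Thbs1 held 4.43 and 5.57 CPM in vehicle heavy polysomes and 22.3, 15.3, 18.4 and 13.8 CPM after HHT, a fold of 3.48 (SE 0.36 on the log2 scale, adjusted p = 0.000925). Thbs4 rose by 1.38 ± 0.22 in medium, beside 1.01 ± 0.20 in input and 0.59 ± 0.22 in heavy. Its heavy call, the fourth of the 4, was lost when any lysate but KO HHT replicate 2 was left out, with DESeq2 size factors, on the compared libraries alone and with replicate 2 alone. The 20 ADAMTS and ADAMTS-like genes, secreted proteases and their relatives without protease activity, had 4, 8 and 13 members higher and 0 lower. Adamts1 and Adamts4, which cut lecticans, rose in heavy by 2.11 ± 0.31 and 1.47 ± 0.31, Adamts1 from 15.3 and 24.9 CPM in vehicle to 74.5 to 98.4 CPM. Adamts3, a procollagen-processing protease, rose by 2.00 ± 0.31. In input Adamts1 rose by 1.13 ± 0.29, and Adamts4 stood at 0.76 ± 0.30 (adjusted p = 0.138).

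Integrin alpha chains had 4, 6 and 6 of 9 members higher, and beta chains 1, 2 and 3 of 7. Among all genes 12.2%, 25.4% and 27.1% rose in input, medium and heavy. The beta chain counts in input and medium lay near those shares. Itgb1, the beta chain that pairs with most alpha chains, held 10.9 and 13.3 CPM in vehicle heavy polysomes and 33.7, 31.5, 35.9 and 27.2 CPM after HHT. Input rose by 0.99 ± 0.18 (adjusted p = 0.00319), medium by 1.45 ± 0.20 (adjusted p = 0.000155) and heavy by 1.41 ± 0.20 (adjusted p = 6.14e-05). Itga3, a laminin-binding alpha chain, held 13.7 and 15.5 CPM in vehicle heavy polysomes and 55.4, 54.6, 48.3 and 48.1 CPM after HHT, a change of 1.82 ± 0.31. Itga4 rose by 1.53 ± 0.24 in heavy. Itgb2, the beta chain of leukocytes and microglia, fell in heavy by 0.79 on the log2 scale (SE 0.29, adjusted p = 0.0371), from 4.80 and 4.39 CPM to 2.25, 2.60, 2.32 and 3.39 CPM. Its counts were low, and its call was lost without KO HHT replicate 1, with replicate 2 alone, by limma and by DESeq2.

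Within HHT slices the heavy polysomes were compared with their own input, as shares of the RNA in each. Of 98 members 38 had a higher share in heavy than in input and 10 a lower one, against 27.6% and 30.4% of all genes (58.0% in either direction) and 25.8% and 29.6% of genes with a hydrophobic start. The largest ratios belonged to Tnr at 1.59 ± 0.38 (adjusted p = 0.00262), Agrn at 1.43 ± 0.20 (adjusted p = 4.78e-05), Col4a2 at 1.21 ± 0.22 and Tnc at 1.18 ± 0.22, and Itga3 stood between the last pair, at a fold of 2.29. ADAMTS genes made up 12 of the 38. The 10 lower members were Sparc at -1.58 ± 0.12 (adjusted p = 1.97e-06), Hapln3, Col1a2, Col9a3, Itgb2, Col1a1, Col15a1, Col9a2, Col3a1 and Itga5, so 3 of the 9 fibrillar collagens were among them, while Col5a1 was higher at 0.75 ± 0.16. Several marker lists also had mostly lower shares in heavy than in input. Lower were 10 of 12 fibroblast markers (median -1.14) and 12 of 12 microglial markers (median -1.49). So were 9 of 12 endothelial markers (median -0.73) and 7 of 11 mural markers (median -0.66). The only higher ones in these 4 lists were 2 mural markers. Excitatory neuron markers went the other way, with 5 of 10 higher and 2 lower (median 0.3). Astrocyte markers had 3 of 12 higher and 6 lower (median -0.31), oligodendrocyte markers 1 of 12 and 6 (median -0.34), and precursor markers 1 of 7 and 1 (median -0.14). Inhibitory neuron markers had 2 of 10 higher and 6 lower, and their median of -0.71 was near that of endothelial and mural markers. Choroid plexus markers had 1 of 8 higher and 4 lower (median -0.49), and blood markers 0 of 2 and 2 (median -2.05). The part of the markers in the lower member ratios was not tested. Scaling by total counts, which lowered the median of all genes by 0.24, gave 18 higher and 20 lower members, beside 2382 higher and 6090 lower among all genes. The 10 lower calls held under it, and 18 of the 38 higher calls did. Of the 48 calls in all, leaving out WT HHT replicate 2 gave 28 and leaving out KO HHT replicate 2 gave 22. Keeping each lysate as a replicate block gave 52.

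Few members were called between medium polysomes and input under HHT, and 0 of the 65 members under 10 CPM were. Few calls do not show that the shares were equal. Col25a1 (0.84 ± 0.23), Adamts4 (0.81 ± 0.22), Adamts1 (0.65 ± 0.22) and Hapln2 (0.56 ± 0.12) had a higher share in medium and Sparc a lower one (-1.18 ± 0.12), 4 and 1 of 98, where 13.4% and 17.0% of all genes passed (30.4% in either direction), and 11.8% and 15.6% of genes with a hydrophobic start. With the lysate as a replicate block, 14 members passed higher and 2 lower. Scaling by total counts gave 4 higher and 3 lower. Left-out lysates moved the 5 calls to 13 (no WT HHT replicate 1), 3 (no WT HHT replicate 2) and 2 (no KO HHT replicate 2).

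In vehicle slices the same ratios had a member median of 0.11 in heavy and -0.11 in medium, with a median SE of 0.29. In heavy against input 2 members passed, Itgb4 at 0.82 ± 0.16 and Adamts15 at 0.77 ± 0.26, both higher, where 24.8% of all genes passed higher and 21.7% lower (46.5% in either direction). Among genes with a hydrophobic start 3.3% passed higher and 25.6% lower. Of the 33 members with at least 10 CPM 1 passed in either direction, against 58.6% of all genes at that level. In medium against input Adamtsl5 (0.78 ± 0.23) and Hapln2 (0.63 ± 0.18) were higher and Itgb1 (-0.75 ± 0.22) and Col4a3bp (-0.57 ± 0.18) lower, where 10.2% and 9.5% of all genes passed (19.7% in either direction), and 2.29% and 4.71% of genes with a hydrophobic start. These counts depend on the processing. Fitted on the compared libraries alone they were 17 in heavy and 16 in medium. Scaling by total counts, which lowered the median of all genes by 0.39, gave 1 higher and 13 lower in heavy, beside 1836 and 5431 among all genes. DESeq2 size factors in edgeR gave 5 higher in heavy. Left-out HHT lysates gave 2 to 4 in heavy (4 without either WT lysate) and 2 in medium without any 1 of the 4. The replicate block gave 5 in heavy, 4 of them higher.

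The difference between the 2 ratios tests whether a gene's share in polysomes, relative to its share in input, differed between HHT and vehicle slices. Both are shares of the RNA in a pool, so a shift is not a measure of movement along the gradient. In heavy against input 5 members shifted up and 2 down, against 12.6% and 16.3% of all genes (28.9% in either direction) and 17.9% and 3.59% of genes with a hydrophobic start. Fn1 went from -0.64 ± 0.48 in vehicle to 0.96 ± 0.28 under HHT, a shift of 1.60 ± 0.56 (adjusted p = 0.0461). Lamc1 shifted by 1.08 ± 0.34 (adjusted p = 0.0298), Agrn by 1.00 ± 0.34 (adjusted p = 0.0431), Adamts20 by 0.99 ± 0.32 (adjusted p = 0.0334) and Itgb5 by 0.82 ± 0.23 (adjusted p = 0.0177). Sparc shifted by -1.36 ± 0.21 (adjusted p = 0.000579), from -0.22 ± 0.17 to -1.58 ± 0.12, and Itgb2 by -1.49 ± 0.40 (adjusted p = 0.0134), from 0.80 ± 0.33 to -0.69 ± 0.22. Tnr had the largest estimate, 1.86 ± 0.73, and did not pass (adjusted p = 0.073). It was 1.33 from replicate 1 alone and 2.86 from replicate 2 alone.

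DESeq2 kept 3 of the 7 calls and lost those of Adamts20, Fn1, Itgb2 and Itgb5. All 5 upward shifts were lost without KO HHT replicate 2, which left 2 calls, Sparc and Itgb2. Without WT HHT replicate 1 there were 15 calls. Adamts20 was also lost without each of the other 3 lysates. The replicate block gave 12 up and 3 down with all 7 calls among them, and scaling by total counts gave 13 up and 2 down, beside 2621 and 1717 among all genes. DESeq2 size factors gave 3 up and 2 down, without Fn1 and Agrn. In medium against input Sparc shifted by -0.73 ± 0.21 (adjusted p = 0.0282) and no other member passed, 1 lower and 0 higher, where 10.2% and 7.09% of all genes passed (17.3% in either direction), and 3.5% and 1.75% of genes with a hydrophobic start. Leaving out either replicate 2 lysate, WT or KO, left 0 calls. Leaving out WT HHT replicate 1 gave 3 calls and leaving out KO HHT replicate 1 gave 2. The replicate block gave 6.

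**Figure D4:**
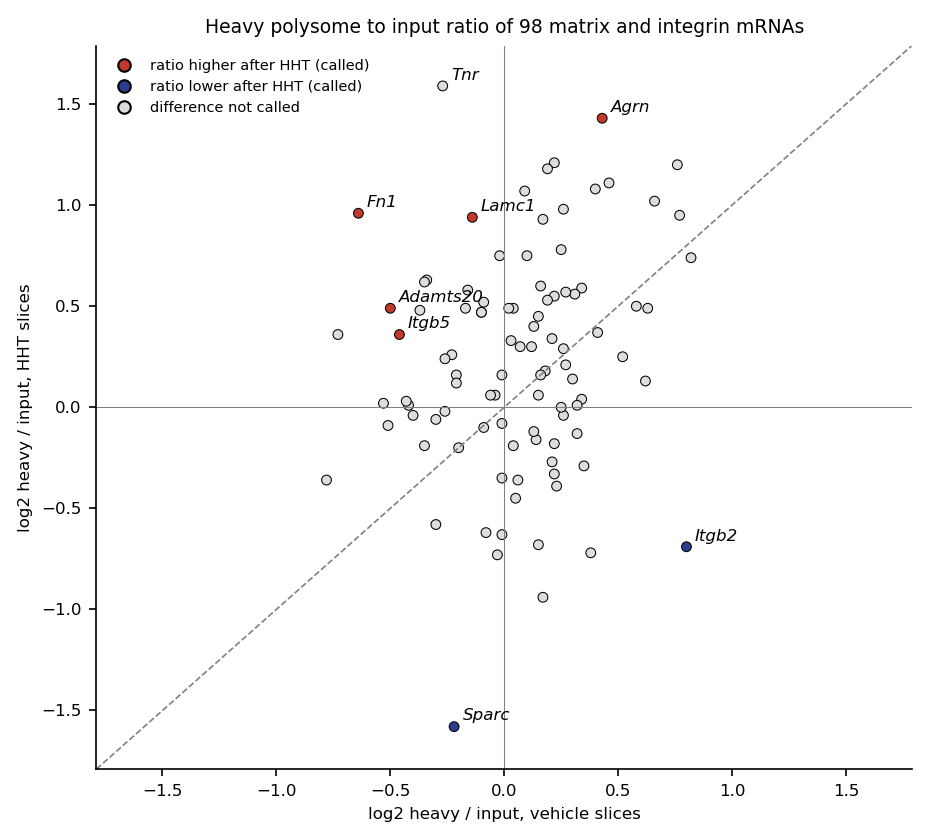
Log2 ratio of heavy polysomes to input in vehicle slices (x axis) and in HHT slices (y axis) for the 98 members, with the line of equal ratios dashed. The 5 red points above the line shifted up, the 2 blue points, Sparc and Itgb2, shifted down, and Tnr is the highest point on the y axis at 1.59.

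Coding length was set beside the heavy ratio. The Spearman correlation between codons and the heavy to input ratio under HHT was 0.21 over all 98 members and 0.63 over the 33 with at least 10 CPM, and over the 13050 genes with a coding sequence it was 0.64. In vehicle slices it was 0.18, 0.35 and 0.6 in the same order. These are correlations across genes that share libraries, given as a description. Sparc, with 302 codons, had the lowest ratio. Of the 68 members with 1000 codons or more, 28 had a higher and 5 a lower share in heavy than in input under HHT, and of the 30 shorter members 10 and 5. With the change after HHT in heavy, the correlation of length was -0.07 over the 98 members, 0.42 over the 33 and -0.03 over all genes. In medium it was -0.07, 0.32 and 0.47 in the same order.

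**Figure D5:**
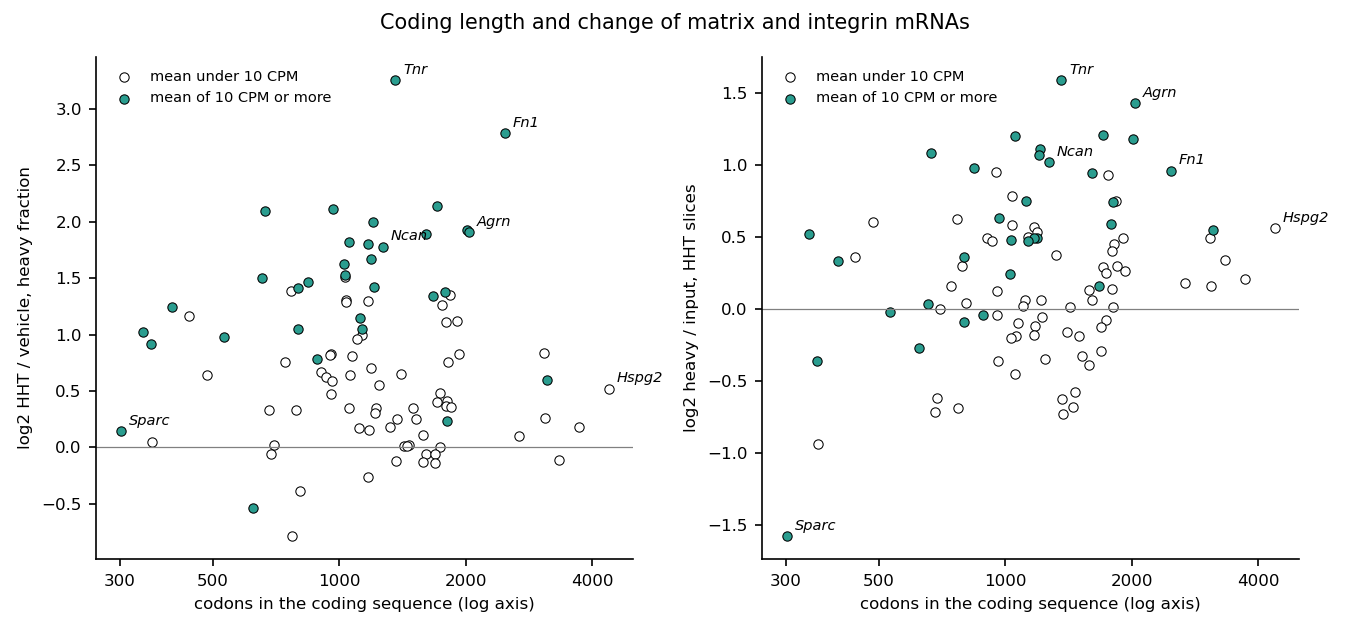
Codons in the coding sequence (x axis, log scale) against the log2 change of HHT over vehicle in heavy polysomes (left) and the log2 ratio of heavy polysomes to input in HHT slices (right), 1 point a member, filled where the mean was at least 10 CPM. On the right, Sparc at 302 codons is lowest at -1.58 and longer filled points lie mostly above 0.

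No difference between KO and WT was detected for any member. In KO against WT under HHT, edgeR called 0 of 98 members in input, medium and heavy, where 0.0% of all genes passed, and DESeq2 also called 0 members in each. At an unadjusted p under 0.05 there were 2, 1 and 5 members. Over the members the difference had a median of -0.05 (input), -0.01 (medium) and 0.04 (heavy). The smallest p belonged to Hapln2, a link protein of myelinated axons, in input, at -0.67 ± 0.17 (unadjusted p = 0.0018, adjusted p = 0.89). The replicate block called 0 members too. Fmr1 itself, lower in each KO library, did not pass in this fit either, at -2.00 ± 0.27 in input (adjusted p = 0.0647), with 2 libraries against 2.

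The drug effect was compared between genotypes as well. The test of whether HHT acted differently in KO and WT called 0 of 98 members and 0.0% of all genes in each fraction by edgeR, and DESeq2 also called 0 members. Unadjusted p-values under 0.05 numbered 3, 0 and 3. In vehicle, with 1 library a genotype and no test, the difference of KO from WT on the log2(CPM + 1) scale had a member median of 0.05 in input, 0.06 in medium and 0.10 in heavy. It ran from -0.42 (Itga8) to 0.90 (Sparc) in input, and no member differed by more than 1 in any fraction.

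Other genes of matrix handling, from lists of genes that are no members, were counted in the same way. Of all genes 12.2% rose in input, 25.4% in medium and 27.1% in heavy, and of genes with a hydrophobic start 44.4%, 56.9% and 63.3%. Of 23 collagen-processing genes 11, 13 and 11 rose in input, medium and heavy, among them P4ha1 and P4hb, subunits of prolyl hydroxylase, at 1.22 ± 0.19 and 1.50 ± 0.18 in input. Of 23 matrix proteases and inhibitors 16, 19 and 17 rose, including the membrane protease Mmp17 at 1.97 ± 0.19 and the inhibitor Timp2 at 1.69 ± 0.19 in heavy. Of 18 cell-surface and small proteoglycans 15, 15 and 14 rose, with Sdc3 (syndecan-3) at 1.66 ± 0.20 in heavy. Of 10 other matrix receptors 6, 7 and 8 rose, and Lrp1, an endocytic receptor, reached 2.23 ± 0.29 in heavy. Of 10 hyaluronan genes 2, 4 and 4 rose. In these 5 lists 1 gene fell in 1 fraction, a collagen-processing gene in heavy.

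Integrin adaptors and kinases, which work in the cytosol, gave more falls than rises in heavy polysomes. Of 29 measured, 1 rose in input, 7 rose and 9 fell in medium, and 3 rose and 14 fell in heavy, with a median of -0.33 in heavy. Among all genes 25.4% rose and 21.5% fell in medium, and 27.1% rose and 24.7% fell in heavy. Fermt2 (kindlin-2), which activates integrins, fell by 1.13 on the log2 scale in heavy (SE 0.13, adjusted p = 1.66e-05), and Bcar1, a docking protein of focal adhesions, by 1.08 (SE 0.13). Against input, 20 of the 29 had a higher share in heavy polysomes of vehicle slices and 4 a lower one. The shares of all genes there were 24.8% and 21.7%.

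Cell-type markers were counted too, and their part in the changes above was not tested. Of all 13973 genes, 1702 rose in input, 3551 in medium and 3781 in heavy, and 30, 3011 and 3451 fell. Several marker counts in heavy, such as 2 of 12 endothelial and 2 of 8 choroid plexus markers higher, did not exceed that share. Endothelial markers had 8, 7 and 2 of 12 higher after HHT in input, medium and heavy, with summed levels of 28.6 and 30.3 CPM in vehicle input and 61.6 to 71.4 CPM in HHT input. Fibroblast markers had 7, 5 and 1 of 12 higher and 0, 1 and 2 lower, with 92.6 and 120 CPM in vehicle input and 179 to 248 CPM in HHT input. Mural markers had 5, 6 and 1 of 11 higher and 0, 3 and 2 lower, with 38.4 and 44.5 CPM in vehicle input and 76.0 to 97.1 CPM in HHT input. Astrocyte markers had 5, 9 and 8 of 12 higher and 0, 1 and 4 lower, with 1981 and 2346 CPM in vehicle input and 3109 to 3617 CPM in HHT input. Choroid plexus markers had 4, 3 and 2 of 8 higher and 0, 0 and 1 lower, with 103 and 156 CPM in vehicle input and 202 to 317 CPM in HHT input. Oligodendrocyte markers had 5, 7 and 7 of 12 higher and 0, 3 and 3 lower, and markers of their precursors 3, 6 and 5 of 7 higher and 0, 1 and 1 lower. Excitatory neuron markers had 2, 6 and 2 of 10 higher and 0, 3 and 5 lower, and inhibitory neuron markers 4, 5 and 5 of 10 higher and 0, 1 and 2 lower. Of 2 blood markers measured 0 rose and 1 fell, in medium. In heavy polysomes endothelial markers held 26.2 and 29.9 CPM in vehicle and 34.3 to 47.8 CPM after HHT, and fibroblast markers 65.0 and 65.9 CPM in vehicle and 57.2 to 87.8 CPM after HHT. Microglial markers had 8, 3 and 0 of 12 higher and 0, 1 and 0 lower. In heavy, where Itgb2 fell, their median change was 0.06. Their summed level there was 87.1 and 91.5 CPM in vehicle and 69.9 to 102 CPM after HHT. No marker list shares a gene with the members.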

How the data were processed

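The members and gene lists were chosen with earlier results of these data known. Per the submitters' processing notes, the tools were RSEM 1.2.11, Bowtie2 2.1.0, DESeq2 1.16.1 and Trimmomatic 0.32, with mm10, and their roles are not stated. The deposited counts cover 13973 genes and are estimated counts (0 of 251514 were whole to within 1e-06), rounded here. The second deposited table is a score the authors call TPM. It is called rescaled TPM here, because 10 of its 18 columns sum to more than TPM can. Gene filters and any batch adjustment are not stated in the labels. All 18 columns carry a sample, 0 do not. Sample numbers tie fractions to a lysate per the labels' protocols, and deviations of fractions of 1 lysate correlated at 0.0142 to 0.349. Those of equal numbers in WT and KO correlated at 0.00332 to 0.323. P-values measure the spread between HHT libraries of the same group. Vehicle groups, with 1 library each, add no spread and are assumed to vary alike.

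Counts were fitted with edgeR 4.0.16 (R 4.3.3) as 12 group means with TMM scaling, 6 residual and 7.36 prior degrees of freedom, after a low-count filter that kept all 13973 genes. The median SE over genes was 0.14 to 0.37. Tests are 2-sided. The fit was tested on simulated data. Alternatives were DESeq2 1.42.0, limma 3.58.1 on log2(rescaled TPM + 1), other scalings and filters, fewer libraries, left-out lysates and lysate blocks. Coding sequences are those of the GENCODE M21 transcript with the best APPRIS rank, then CCDS membership, then length. Named genes are per comparison, up to 12 called members in each direction, by size of change, the 2 with the highest mean CPM per role class, the 11 genes named in the rule for members, up to 4 genes per pathway list and comparison, and Fmr1. Other members are named only where a count of 5 or fewer, or an extreme value, called for it.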

Additional observations from a re-analysis of the deposited data

Results flagged for a closer look

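For 7 members the effect of HHT differed between heavy polysomes and input by the test of that difference itself (edgeR, Benjamini-Hochberg over all genes). On the log2 scale the effect in heavy exceeded that in input by 1.60 for Fn1, 1.08 for Lamc1, 1.00 for Agrn, 0.99 for Adamts20 and 0.82 for Itgb5. It was below that in input for Itgb2, at -1.49, and for Sparc, at -1.36. Between medium polysomes and input the effect differed for Sparc, at -0.73. The 2 negative shifts in heavy were called with each lysate left out in turn, and the 5 positive shifts were not called without KO HHT replicate 2. DESeq2 did not call the shifts of Itgb2, Fn1, Adamts20 and Itgb5.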

How the results depend on the processing

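Counts are members called in either direction. For HHT against vehicle the input count of 36 was 17 to 41 with 1 lysate left out, 59 from HHT replicate 1 alone, 23 on the compared libraries alone, 12 by limma and 20 among the 33 members averaging 10 CPM or more. Medium (50) was 44 to 53 and heavy (57) 47 to 55 with 1 lysate left out, and 27 and 31 at 10 CPM. Under HHT, medium against input (5) was 2 to 13 with 1 lysate left out and 16 with the replicate block, and heavy against input (48) was 22 to 42 with 1 left out and 23 at 10 CPM. In vehicle, medium against input (4) was 2 with any lysate left out, 16 on the compared libraries alone and 2 by DESeq2. Heavy against input (2) was 2 to 4 with 1 left out, 17 on the compared libraries alone, 14 by total counts, 5 with DESeq2 size factors, 5 with the replicate block and 4 at 10 CPM. The shift of medium against input (1) was 0 to 3 with 1 left out, 0 on the compared libraries alone, 0 by limma, 3 by DESeq2, 6 with the replicate block, and 13 and 14 from replicates 1 and 2 alone. The shift of heavy against input (7) was 2 to 15 with 1 left out, 15 by total counts, 15 with the replicate block, 16 and 30 from replicates 1 and 2 alone, 23 by limma and 3 by DESeq2. The causes were not tested, except that the 10 CPM filter tests fewer members. Fits on replicate 1 or 2 alone keep 1 HHT lysate a genotype, so their counts leave out the spread between lysates of a genotype. All genotype counts stayed at 0 in every alternative run, the replicate block included. Total counts moved the median of all genes by -0.11 in medium and -0.10 in input for HHT against vehicle, and by 0.15 for the shift in heavy, and DESeq2 size factors by -0.11 in heavy. All genes called were then 1386 higher and 230 lower in input, against 1702 and 30 with TMM, and 2987 higher and 3728 lower in medium, against 3551 and 3011. With DESeq2 size factors they were 3210 and 4079 in heavy, against 3781 and 3451. Of 950 alternative values of 79 results on named members 853 kept their call, 97 lost it and 0 reversed.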

Other observations

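Among the 32 Col-prefixed members, the longest run of glycine-led triplets in the translated coding sequence was 217 to 344 triplets in the 9 fibrillar collagens. It was 30 to 66 in the 6 basement membrane collagens, which lie inside the range of the other 17 genes, 2 to 113. The lowest value, 2, belonged to Col4a3bp, which is no collagen. The share in heavy polysomes against input under HHT did not sort by this run: among fibrillar collagens Col1a1, Col1a2 and Col3a1 were lower and Col5a1 higher, and among basement membrane collagens Col15a1 was lower and Col4a2 higher.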
